A study of Mus musculus with 9 samples.

Results

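The 10 genes described here encode the liver X receptors (LXRs) and proteins of cholesterol efflux, transport and storage: Nr1h2, Nr1h3, Abca1, Abcg1, Apoe, Lpl, Npc1, Npc2, Soat1 and Lipa. They were chosen by gene symbol from the 49315 genes of the count table, and all 10 were among the 15963 genes that passed the filter on low counts. RNA was sequenced from RAW 264.7, a macrophage line from mouse that takes on osteoclast features under RANKL, the cytokine of osteoclast formation. In the pamidronate + GGOH group, cells received 140 µM pamidronate together with 5.25 µM GGOH (geranylgeraniol). The pamidronate group received 140 µM pamidronate alone, and the control group received neither agent. Each group had 3 libraries. By the growth notes every culture was given 20 ng/ml RANKL after 24 h, the agents were added after 48 h in total, and cells were collected 24 h later. The controls are labelled as having no treatment, and they were read here as RANKL without pamidronate. Only the control titles call the replicates biological, so the p-values measure the spread between these samples, which may be technical.

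LXRα (Nr1h3) and LXRβ (Nr1h2) are nuclear receptors that bind DNA with a retinoid X receptor and are switched on by oxysterols and by the cholesterol precursor desmosterol. In macrophages they are known for turning on ABCA1 and ABCG1, which export cholesterol, and genes of lipoprotein metabolism such as Apoe and Lpl. Cholesterol taken up in lipoproteins is freed in the lysosome by acid lipase (Lipa), leaves it through NPC2 and NPC1, and is either exported or esterified by SOAT1 for storage in lipid droplets. Pamidronate is a nitrogen-containing bisphosphonate that blocks farnesyl diphosphate synthase, an enzyme upstream of both sterols and geranylgeranyl diphosphate. GGOH is an alcohol that cells can convert to geranylgeranyl diphosphate, a lipid that has been reported as an LXR antagonist.

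Library totals ran from 14356069 to 18957968 counts. The share of counts from mitochondrially encoded genes was 5.43% to 6.31% in the pamidronate + GGOH libraries, 3.71% to 5.19% in the pamidronate libraries and 10.4% to 10.8% in the controls. The summed level of 8 macrophage markers was 13519 to 19869 TPM (transcript abundance corrected for exon length and depth) in the pamidronate + GGOH libraries, 8523 to 12641 TPM in the pamidronate libraries and 25890 to 31196 TPM in the controls. All 8 macrophage markers were detected, and 7 of them fell with pamidronate, where 32.9% of all genes tested fell. Most of the sum was Lyz2, which averaged 13284 TPM with pamidronate + GGOH, 8451 TPM with pamidronate and 24379 TPM in the controls. Csf1r averaged 50.2 TPM with pamidronate and 646 TPM in the controls, and Cd14 1004 and 987 TPM. The 9 osteoclast markers summed to 257 to 272 TPM with pamidronate + GGOH, 284 to 414 TPM with pamidronate and 107 to 133 TPM in the controls. With pamidronate 3 of them rose and 1 fell, beside 36.2% and 32.9% of all genes tested. On the group means Atp6v0d2 was the largest part, at 132 TPM with pamidronate + GGOH, 249 TPM with pamidronate and 48.6 TPM in the controls. Ctsk averaged 54 TPM with pamidronate against 7.1 TPM in the controls, Nfatc1 28.3 against 41 TPM and Mmp9 12.4 against 17.5 TPM. Of the osteoclast markers, Calcr, the calcitonin receptor, was at 0 in every pamidronate and control library and had 1 count in each pamidronate + GGOH library. Markers of fibroblasts, epithelium, lymphocytes and liver were near 0. Control replicates 1 and 3 were at opposite ends of the controls in several of the 10 genes, in CPM. Replicate 1 was the lowest and replicate 3 the highest control for Abca1, Abcg1 and Nr1h3, and the reverse held for Lpl and Lipa. In bulk RNA, fewer cells of a type and less RNA per cell cannot be told apart. The part of the mitochondrial share and of the marker shifts in the results below was not tested.

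With pamidronate, both cholesterol exporters and LXRα fell against control. Abca1 was 4.32-fold lower, Abcg1 3.15-fold lower and Nr1h3 2.33-fold lower, and the storage enzyme Soat1 and the acid lipase Lipa fell by smaller amounts. Apoe, a target of the same receptors, rose 5.72-fold from a low level. Genes with an adjusted p under 0.05 are called risen or fallen here. Of the 10 genes, 1 rose, 5 fell and 4 were not called, while over all genes tested 36.2% rose and 32.9% fell. The median log2 fold change of the 10 genes was -0.45, against 0.08 over all genes tested. The libraries of the 2 groups did not overlap for 5 of the 10 genes, a smaller share than the 73.4% over all genes. With upper-quartile scaling in place of TMM the split was 4 risen and 4 fallen genes, and the median of all genes moved to 0.28. With a stricter filter on low counts, which Nr1h3 did not pass, the split was 3 risen and 3 fallen genes. The larger number of fallen than risen genes thus depended on these settings.

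**Figure D1:**
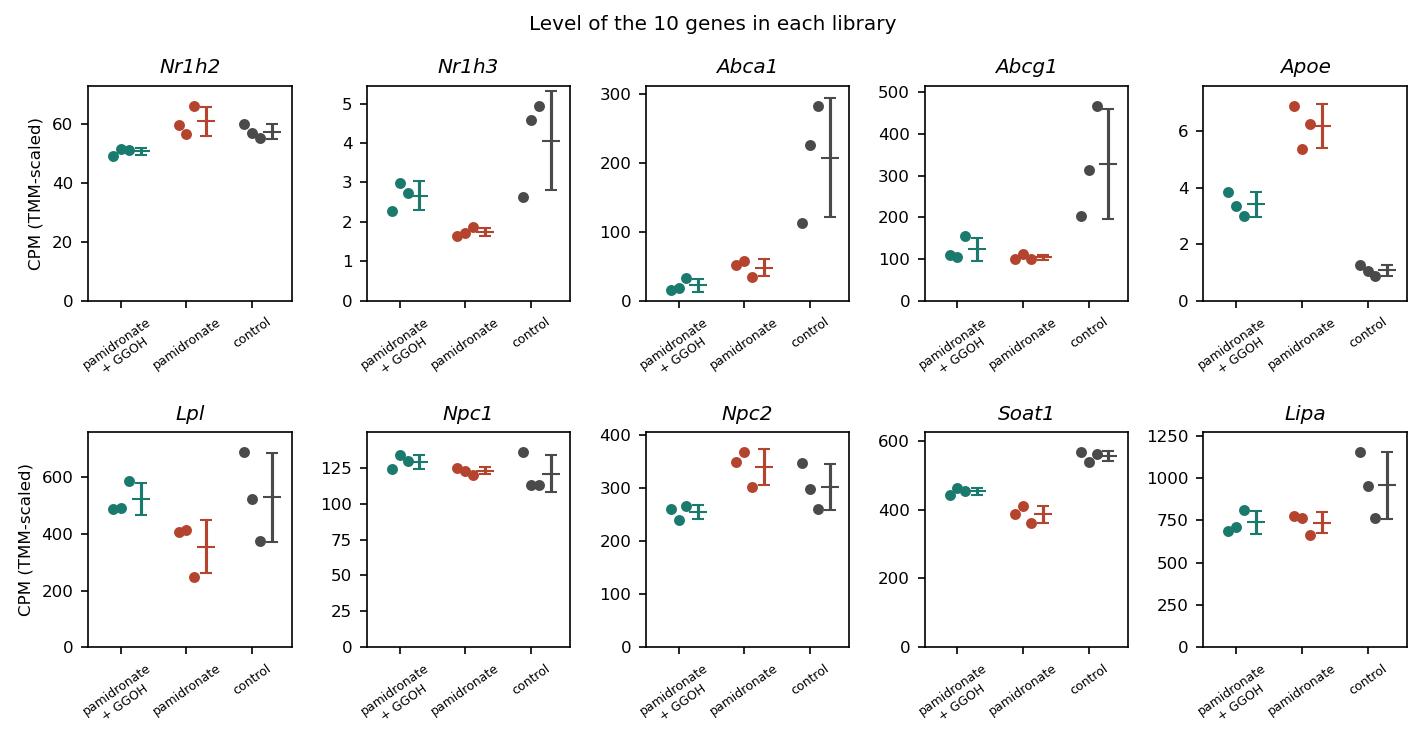
Level of each of the 10 genes in every library, as CPM (library-scaled counts, with TMM factors), with points for libraries and a bar for the mean ± SD (n = 3). The Abca1 and Abcg1 points of both pamidronate groups lie below all 3 controls, at most 58.3 CPM and 154 CPM against at least 113 CPM and 204 CPM, while the Apoe points lie above them.

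On the TPM scale LXRβ was the more abundant of the receptor transcripts. Nr1h2 (GRCm38 chr7:44549616-44553951, minus strand) had 49.2, 51.6 and 51.3 CPM in the pamidronate + GGOH libraries, 59.8, 56.7 and 66.3 CPM in the pamidronate libraries and 60.1, 56.9 and 55.2 CPM in the controls. In CPM the pamidronate and control libraries overlapped, and the pamidronate + GGOH libraries lay below both. In deposited TPM the treated groups overlapped, at 40.7 to 44.7 TPM with pamidronate + GGOH and 41.2 to 48.6 TPM with pamidronate. Both lay above the controls there, at 38.1 to 39.2 TPM. Against control the log2 ratio of TPM was 0.22 with pamidronate and 0.15 with pamidronate + GGOH. The medians over all genes tested were 0.21 and 0.35 in the same order, so Nr1h2 did not rise clearly beyond that scale's general shift. The log2 ratio of TPM between the treated groups was -0.07, against a median of 0.20 over all genes tested. The log2 fold change of Nr1h2 was 0.09 ± 0.09 (SE; adjusted p = 0.383) for pamidronate against control. It fell with pamidronate + GGOH against pamidronate, at -0.27 ± 0.09 (adjusted p = 0.0186), and stood at -0.18 ± 0.09 (adjusted p = 0.0896) against control. The call against pamidronate was lost with no filter on low counts, and also without any 1 of the 3 pamidronate + GGOH libraries, pamidronate replicate 3 or control replicate 2, with log2 values of -0.20 to -0.23 and adjusted p-values of 0.0557 to 0.158. Nr1h2 was called higher with pamidronate than in control with upper-quartile scaling, at 0.28 (adjusted p = 0.0107), and with the stricter filter, at 0.23 (adjusted p = 0.0228).

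LXRα was measured from few counts. Nr1h3 (chr2:91184061-91202834, minus strand) had 40, 48 and 52 counts with pamidronate + GGOH, 27, 27 and 30 counts with pamidronate and 45, 82 and 80 counts in the controls. In scaled units these were 2.27, 2.99 and 2.73 CPM with pamidronate + GGOH, 1.65, 1.71 and 1.86 CPM with pamidronate and 2.63, 4.59 and 4.95 CPM in the controls. The pamidronate libraries lay below every library of the other groups, and control replicate 1 lay within the pamidronate + GGOH range. Nr1h3 fell with pamidronate, with a log2 fold change of -1.22 ± 0.26 (adjusted p = 0.000828). Against pamidronate alone, pamidronate + GGOH stood at 0.61 ± 0.27 (adjusted p = 0.0752), with no overlap between the libraries, and against control at -0.61 ± 0.25 (adjusted p = 0.0538). Both of these passed the threshold without control replicate 1, at 0.61 (adjusted p = 0.0388; 0.0388 to 0.167 over the alternatives) and at -0.85 (adjusted p = 0.00624; 0.00624 to 0.189). The value against control was also called with RLE factors, at -0.62 (adjusted p = 0.0475), and with no filter on low counts, at -0.64 (adjusted p = 0.0482). Nr1h3 shares 34 exon bases with the same-strand gene Gm13783, which held 122 counts over the 9 libraries against 431 for Nr1h3, so some reads could have been split between them.

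Abca1, the transporter that passes cholesterol and phospholipid to lipid-poor apolipoprotein A-I, differed most among the exporters. It had 15.9, 17.8 and 32.8 CPM in the pamidronate + GGOH libraries, 51.6, 58.3 and 34.1 CPM in the pamidronate libraries and 113, 226 and 283 CPM in the controls. In CPM the 3 groups did not overlap, and the order was pamidronate + GGOH lowest, then pamidronate, then control. The gap between the treated groups was narrow on that scale, with pamidronate + GGOH replicate 3 and pamidronate replicate 3 close to each other. In deposited TPM the treated groups overlapped, at 4.26 to 9.07 TPM with pamidronate + GGOH and 8.08 to 13.7 TPM with pamidronate. The log2 fold change was -2.11 ± 0.44 (adjusted p = 0.00421) for pamidronate against control and -3.22 ± 0.46 (adjusted p = 0.00125) for pamidronate + GGOH against control, a 9.31-fold lower level. Leaving out single libraries kept the pamidronate value between -1.88 and -2.41. Pamidronate + GGOH against pamidronate gave -1.11 ± 0.45 (adjusted p = 0.0822), which did not pass the threshold. It passed in the fit of the 2 groups alone (adjusted p = 0.0345), in DESeq2 (0.0273), with the stricter filter (0.0401) and without control replicate 1 (0.0376), over a range of 0.0273 to 0.234.

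The Abca1 promoter is shown because it holds the classical LXR element of this gene and because Abca1 had the largest change among the 10 genes. Abca1 lies on the minus strand of chr4:53030787-53159895, and RefSeq gives the 250 bases before its start (GRCm38.p6 chr4:53159896-53160145, minus strand) as follows.
Abca1: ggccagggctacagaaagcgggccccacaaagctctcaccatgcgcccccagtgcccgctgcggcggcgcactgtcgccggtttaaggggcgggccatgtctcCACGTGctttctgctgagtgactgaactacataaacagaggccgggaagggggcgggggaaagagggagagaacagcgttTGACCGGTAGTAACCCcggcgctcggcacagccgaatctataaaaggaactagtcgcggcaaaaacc
The capitals mark an E-box, CACGTG, whose first base is at -147 from the start, and the best match to a direct repeat of AGGTCA with a 4-base spacer (DR4), the layout bound by LXR with the retinoid X receptor. On the other strand that match, from -67 to -52, reads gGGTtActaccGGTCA with its matching bases in capitals, and it has 3 mismatches to the 12 fixed bases. RefSeq promoters from 250 bases before to 50 bases after the start were at hand for 7 of the 10 genes (Nr1h2, Nr1h3, Abca1, Apoe, Npc2, Soat1 and Lipa). In the other 6 genes the best window, searched on both strands, had 4 mismatches. Of 32851 promoters of that length, 21.9% held a window with at most 3 mismatches, 3.02% one with at most 2, 7.15% an E-box and 16.3% a single AGGTCA half-site. None of the promoters of these 7 genes held the half-site in full.

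Abcg1, which moves cholesterol towards high-density lipoprotein, was lower in both treated groups. Abcg1 (chr17:31057698-31115777, plus strand) had 109, 105 and 154 CPM with pamidronate + GGOH, 99.8, 111 and 101 CPM with pamidronate and 204, 313 and 468 CPM in the controls. In CPM the treated groups overlapped each other, and both lay below all 3 controls. Abcg1 fell with pamidronate, at -1.66 ± 0.30 (adjusted p = 0.00163), and with pamidronate + GGOH, at -1.42 ± 0.30 (adjusted p = 0.0055). Between the treated groups it was at 0.24 ± 0.29 (adjusted p = 0.54). Both exporters were thus lower than control in each treated group. In CPM the treated groups had separate ranges for Abca1 and overlapping ones for Abcg1. In deposited TPM the ranges overlapped for Abca1 and were separate for Abcg1. Abcg1 was at 74.5 to 109 TPM with pamidronate + GGOH, 61.3 to 66.5 TPM with pamidronate and 107 to 271 TPM in the controls. On that scale pamidronate + GGOH thus overlapped the controls. The log2 ratio of Abcg1 TPM between the treated groups was 0.44, against a median of 0.20 over all genes tested.

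Apoe, the apolipoprotein that macrophages secrete with cholesterol, moved the other way. RAW 264.7 cells are known for making little of it, and Apoe (chr7:19696109-19699188, minus strand) was the lowest of the 10 genes in the controls on the TPM scale. It had 68, 54 and 57 counts with pamidronate + GGOH, 113, 85 and 101 counts with pamidronate and 22, 19 and 14 counts in the controls. The levels were 3.86, 3.36 and 3 CPM with pamidronate + GGOH, 6.91, 5.38 and 6.26 CPM with pamidronate and 1.28, 1.06 and 0.866 CPM in the controls. No group overlapped another: pamidronate was highest, pamidronate + GGOH in between and control lowest. Apoe rose with pamidronate, with a log2 fold change of 2.52 ± 0.23 (adjusted p = 2.65e-07). It was lower with pamidronate + GGOH than with pamidronate alone, at -0.86 ± 0.20 (adjusted p = 0.0027), and remained above control, at 1.66 ± 0.24 (adjusted p = 7.13e-05).

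Lpl, lipoprotein lipase, which frees fatty acids from lipoproteins outside the cell, passed the threshold in none of the comparisons. Lpl (chr8:68880491-68907448, plus strand) had 490, 492 and 588 CPM with pamidronate + GGOH, 406, 414 and 248 CPM with pamidronate and 690, 524 and 375 CPM in the controls. The controls overlapped both treated groups, and the treated groups did not overlap each other. The log2 fold change was -0.57 ± 0.25 (adjusted p = 0.0709) for pamidronate against control and 0.56 ± 0.25 (adjusted p = 0.101) for pamidronate + GGOH against pamidronate. Both were called with DESeq2 (adjusted p = 0.00669 and 0.0164, over ranges of 0.00669 to 0.23 and 0.0164 to 0.282), with the replicate number as a block (0.0384 and 0.0424) and without control replicate 3 (0.0103 and 0.0384). The second was also called in the fit of its 2 groups alone (0.0366). For Lpl with pamidronate + GGOH against control the value was -0.02 ± 0.25 (adjusted p = 0.96).

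The exit of cholesterol from the lysosome was represented by 3 genes. Lipa, lysosomal acid lipase, splits cholesteryl esters and triglycerides taken up in lipoproteins. Lipa (chr19:34492318-34527474, minus strand) had 688, 712 and 813 CPM with pamidronate + GGOH, 779, 765 and 665 CPM with pamidronate and 1155, 951 and 764 CPM in the controls. The groups overlapped, with control replicate 3 inside the range of both treated groups. Lipa fell with pamidronate, at -0.38 ± 0.13 (adjusted p = 0.0219), and with pamidronate + GGOH, at -0.37 ± 0.13 (adjusted p = 0.0305) against control, and it differed by 0.00 ± 0.13 (adjusted p = 0.99) between the treated groups. The pamidronate call was lost without pamidronate replicate 3 (-0.31), without control replicate 1 (-0.23), with the stricter filter (-0.23) and with upper-quartile scaling (-0.19). The pamidronate + GGOH call was lost with upper-quartile scaling (-0.18), with the stricter filter (-0.22), in the fit of the 2 groups alone (-0.34), and without control replicate 1 (-0.23), control replicate 2 (-0.39), pamidronate + GGOH replicate 1 (-0.34) or pamidronate + GGOH replicate 2 (-0.35).

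Npc2, the soluble lysosomal protein that hands cholesterol to NPC1, separated the treated groups from each other in CPM. Npc2 (chr12:84754560-84773112, minus strand) had 260, 240 and 266 CPM with pamidronate + GGOH, 349, 368 and 302 CPM with pamidronate and 347, 298 and 261 CPM in the controls. All 3 pamidronate + GGOH libraries lay below all 3 pamidronate libraries, while the controls overlapped both. In deposited TPM the treated groups overlapped, at 214 to 234 TPM with pamidronate + GGOH and 228 to 275 TPM with pamidronate. Their log2 ratio of TPM was -0.21, against a median of 0.20 over all genes tested. Npc2 fell with pamidronate + GGOH against pamidronate, at -0.41 ± 0.11 (adjusted p = 0.00645), and among the single libraries left out the call was lost only without pamidronate + GGOH replicate 2, at -0.32 (adjusted p = 0.0637). Against control, pamidronate gave 0.17 ± 0.11 (adjusted p = 0.182) and pamidronate + GGOH -0.24 ± 0.11 (adjusted p = 0.0774). The pamidronate value was called with upper-quartile scaling (0.36), with the stricter filter (0.32) and without control replicate 1 (0.28). The pamidronate + GGOH value against control was called with no filter (-0.28) and without control replicate 3 (-0.35).

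Npc1, the membrane protein that passes cholesterol out of the lysosome, was called in none of the comparisons. It had 124, 134 and 130 CPM with pamidronate + GGOH, 125, 123 and 120 CPM with pamidronate and 136, 113 and 113 CPM in the controls. In CPM the controls overlapped both treated groups. In deposited TPM the 3 groups did not overlap, at 32.2 to 36.2 TPM with pamidronate + GGOH, 27.5 to 29.8 TPM with pamidronate and 24.4 to 26.9 TPM in the controls. The log2 fold changes of Npc1 were 0.02 ± 0.09 (adjusted p = 0.828) for pamidronate against control, 0.08 ± 0.09 (adjusted p = 0.486) for pamidronate + GGOH against pamidronate and 0.10 ± 0.09 (adjusted p = 0.348) for pamidronate + GGOH against control. As log2 ratios of TPM they were 0.16, 0.28 and 0.44 in the same order. The medians over all genes tested on that scale were 0.21, 0.20 and 0.35. Upper-quartile scaling called it higher in both treated groups against control, at 0.22 with pamidronate (adjusted p = 0.0412) and 0.30 with pamidronate + GGOH (adjusted p = 0.0111), and the stricter filter called the second at 0.25. Npc1 shares 192 exon bases with the opposite-strand gene 3110002H16Rik, and as the strand setting of the counting is not given in the sources used here, reads of the 2 genes may not be told apart.

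Soat1, the acyltransferase that makes cholesteryl esters in the endoplasmic reticulum, was lowest with pamidronate. Soat1 (chr1:156424525-156474331, minus strand) had 443, 463 and 453 CPM with pamidronate + GGOH, 388, 410 and 361 CPM with pamidronate and 567, 539 and 562 CPM in the controls. The 3 groups did not overlap in CPM. In deposited TPM pamidronate + GGOH, at 126 to 137 TPM, overlapped the controls, at 123 to 135 TPM. Soat1 fell with pamidronate, at -0.52 ± 0.09 (adjusted p = 6.88e-05). It was higher with pamidronate + GGOH than with pamidronate, at 0.23 ± 0.09 (adjusted p = 0.0373), and lower than control, at -0.30 ± 0.09 (adjusted p = 0.00942). The step between the treated groups was not called with the replicate number as a block (adjusted p = 0.0533), nor without pamidronate + GGOH replicate 2 (0.26, adjusted p = 0.0543), pamidronate replicate 1 (0.23, adjusted p = 0.102) or pamidronate replicate 3 (0.18, adjusted p = 0.158). The difference between pamidronate + GGOH and control was not called with upper-quartile scaling (-0.09) or the stricter filter (-0.14), and it was 0.04 as a log2 ratio of deposited TPM, against a median of 0.35 over all genes on that scale.

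With GGOH added to pamidronate, Soat1 rose against pamidronate alone, Apoe, Npc2 and Nr1h2 fell, and 6 of the 10 genes were not called. Over all genes tested 25.2% rose and 23.6% fell, so 1 and 3 of 10 were near the background. The median log2 fold change was 0.04 for the 10 genes and 0.00 for all genes. The libraries did not overlap for 7 of the 10 genes, where the share over all genes was 59.6%. In the comparison of pamidronate + GGOH with control, Apoe rose, Abca1, Abcg1, Soat1 and Lipa fell, and 5 genes were not called. The background of that comparison was 26.3% risen and 26% fallen, with 58.2% of all genes not overlapping against 5 of the 10 genes, and the medians were -0.27 and 0.02. With upper-quartile scaling that comparison had 2 risen genes, Apoe and Npc1, and 2 fallen ones, Abca1 and Abcg1. The stricter filter also gave 2 risen and 2 fallen genes there. The comparisons with pamidronate share its libraries, and those with control share the controls, so they are not independent of each other.

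**Figure D2:**
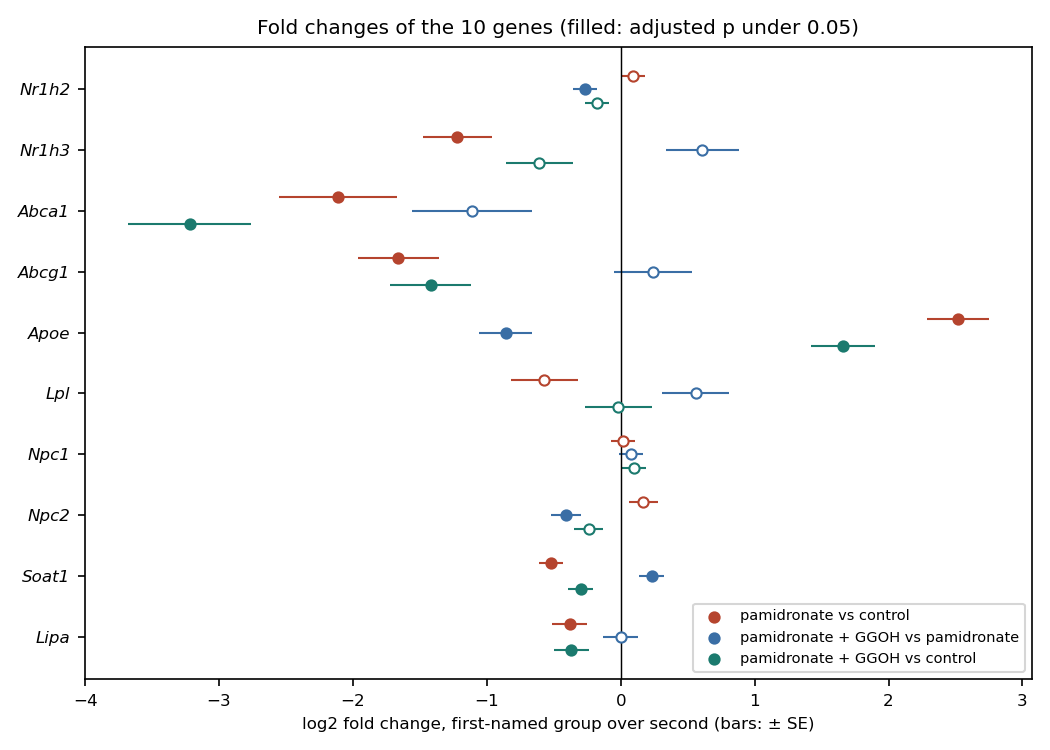
Log2 fold change of each of the 10 genes in the 3 comparisons, with bars for ± 1 SE and filled points for an adjusted p under 0.05. Abca1 lies furthest to the left, at -3.22 for pamidronate + GGOH against control, and Apoe furthest to the right, at 2.52 for pamidronate against control.

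Levels were compared between genes only as deposited TPM, which are corrected for exon length. Lipa was the highest of the 10 genes in every group, with 709 ± 71 TPM with pamidronate + GGOH, 616 ± 60.5 TPM with pamidronate and 725 ± 111 TPM in the controls (SD, n = 3 each). Npc2 came second on the mean level, with 223 ± 9.92 TPM with pamidronate + GGOH, 259 ± 26.6 TPM with pamidronate and 209 ± 18.9 TPM in the controls, and its range overlapped that of Abcg1 in the controls. In the controls Abcg1 followed at 185 ± 82.5 TPM, Soat1 at 129 ± 6.21 TPM and Lpl at 113 ± 27.9 TPM, with overlapping ranges. Abca1 in the controls was at 46 ± 20.9 TPM, which overlapped Nr1h2 at 38.7 ± 0.547 TPM and Npc1 at 25.4 ± 1.36 TPM. Nr1h3 with 3.69 ± 1.29 TPM and Apoe with 1.13 ± 0.162 TPM were the lowest control levels and did not overlap. In the treated groups Abca1 had dropped behind Nr1h2 and Npc1, at 6.11 ± 2.59 TPM with pamidronate + GGOH and 11.5 ± 3.01 TPM with pamidronate. Nr1h3 was then the lowest of the 10, at 3.03 ± 0.478 TPM with pamidronate + GGOH and 1.72 ± 0.0876 TPM with pamidronate, below Apoe at 4.53 ± 0.502 TPM and 7.19 ± 1.06 TPM in the same groups, and its range did not overlap that of Apoe in either. The ranges of Abca1 and Apoe overlapped in both treated groups. Between these and Npc2 lay Lpl with 142 ± 16.3 TPM and Soat1 with 132 ± 5.75 TPM in the pamidronate + GGOH group, and Soat1 with 98 ± 6.35 TPM and Lpl with 84.4 ± 22.7 TPM in the pamidronate group, with overlapping ranges each time. Abcg1 followed at 86.1 ± 19.5 TPM with pamidronate + GGOH and 63.5 ± 2.71 TPM with pamidronate. Nr1h2 and Npc1 came next without overlap, Nr1h2 at 43.1 ± 2.06 TPM with pamidronate + GGOH and 45.1 ± 3.71 TPM with pamidronate, Npc1 at 34.4 ± 2.05 TPM and 28.4 ± 1.25 TPM in the same groups.

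Ratios between functional pairs within a library do not depend on how libraries are scaled to each other. The log2 ratio of Abca1 to Abcg1 TPM was -4.13, -3.91 and -3.58 with pamidronate + GGOH, -2.30, -2.28 and -2.92 with pamidronate and -2.20, -1.82 and -2.07 in the controls. The 3 groups were apart, with a difference of -0.47 for pamidronate against control, -1.37 for pamidronate + GGOH against pamidronate and -1.84 for pamidronate + GGOH against control. The log2 ratio of Nr1h3 to Nr1h2 averaged -3.84 ± 0.17 with pamidronate + GGOH, -4.71 ± 0.07 with pamidronate and -3.46 ± 0.56 in the controls (SD, n = 3 each). It was lower in every pamidronate library than in any other library, while pamidronate + GGOH overlapped control. The ratio of Npc1 to Npc2 was highest with pamidronate + GGOH, at -2.70 ± 0.12, against -3.18 ± 0.13 with pamidronate and -3.04 ± 0.10 in the controls. For Soat1 to Lipa it was -2.42 ± 0.13 with pamidronate + GGOH, -2.65 ± 0.07 with pamidronate and -2.48 ± 0.29 in the controls, apart only between the treated groups. A 2-sided exact permutation test of 3 against 3 libraries cannot go below p = 0.1. All comparisons without overlap had that p, and 0.15 after adjustment over the 12 tests.

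**Figure D3:**
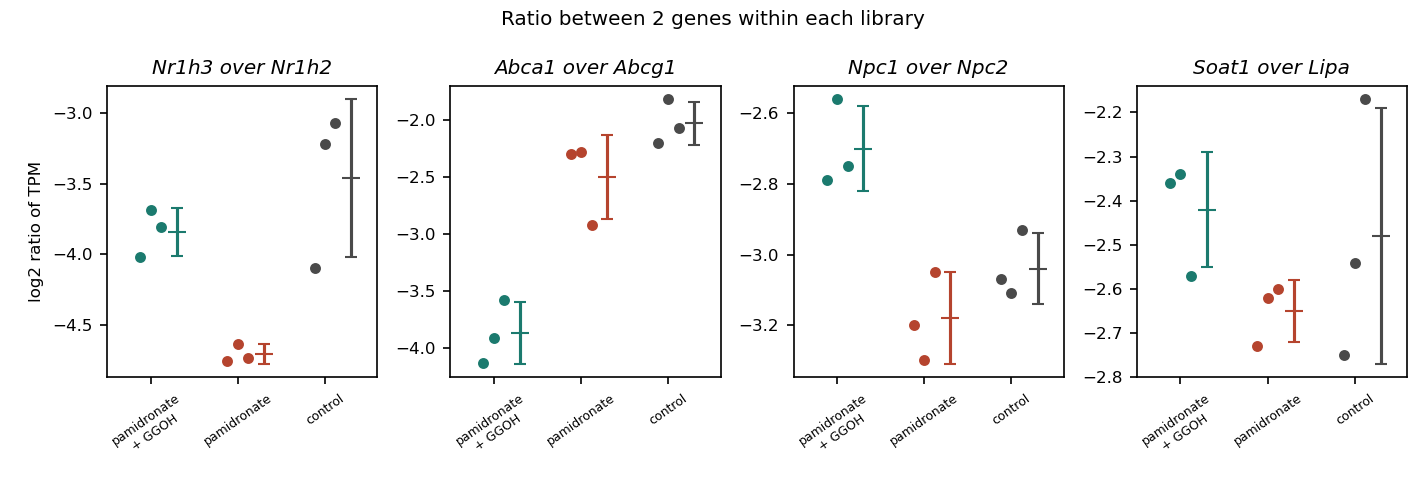
Log2 ratio of TPM between 2 genes in each library, with points for libraries and a bar for the mean ± SD (n = 3). The Abca1 to Abcg1 ratio separates the 3 groups, with all pamidronate + GGOH libraries at or below -3.58 and all controls at or above -2.20.

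Most of the other LXR targets that could be tested fell with pamidronate. Of 17 genes in this list, 12 passed the filter on low counts: 1 rose and 9 fell with pamidronate against control, with a median log2 fold change of -0.87, against 36.2% risen, 32.9% fallen and a median of 0.08 over all genes tested. Pltp, the phospholipid transfer protein, averaged 89.2 CPM with pamidronate + GGOH, 27.8 CPM with pamidronate and 197 CPM in the controls. Pltp fell with pamidronate, with a log2 fold change of -2.83 ± 0.15 (adjusted p = 9.12e-09), and was higher with GGOH added, at 1.68 ± 0.15 (adjusted p = 2.01e-06). Mertk, a receptor for dying cells, and Smpdl3a, a secreted phosphodiesterase, fell with pamidronate, at -2.69 ± 0.20 (adjusted p = 4e-08) and -2.21 ± 0.13 (adjusted p = 5.36e-09). Both were higher with GGOH added, at 1.12 ± 0.21 for Mertk (adjusted p = 0.000476) and 0.73 ± 0.13 for Smpdl3a (adjusted p = 0.000305). The risen gene was Plin2, which coats lipid droplets: it averaged 1583 CPM with pamidronate + GGOH, 2005 CPM with pamidronate and 216 CPM in the controls, with a log2 fold change of 3.22 ± 0.16 for pamidronate against control (adjusted p = 2.99e-09). Pamidronate + GGOH against pamidronate gave -0.34 ± 0.15 for Plin2 (adjusted p = 0.0754). With GGOH added, 4 of the 12 genes rose and 5 fell against pamidronate alone, where 25.2% of all genes rose and 23.6% fell. Those that rose were Pltp, Mertk, Smpdl3a and Lpcat3, and those that fell were Arl4c, Srebf1, Scd1, Scd2 and Fasn, the last 4 being genes of fatty acid synthesis and desaturation or, for Srebf1, of their control. Pamidronate + GGOH against control had 1 risen and 9 fallen genes, with a median of -1.34, and over all genes 26.3% risen, 26% fallen and a median of 0.02.

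Of 17 LXR partners and cofactors, 15 were tested. With pamidronate 1 rose and 8 fell against control, with a median of -0.26, beside 36.2% risen, 32.9% fallen and a median of 0.08 over all genes tested. With upper-quartile scaling 2 rose and 6 fell. Tbl1x and Tbl1xr1, exchange factors of the nuclear corepressor complex, fell, at -1.18 ± 0.10 (adjusted p = 1.64e-07) and -1.05 ± 0.10 (adjusted p = 2.86e-07). Tbl1x averaged 147 CPM with pamidronate + GGOH, 111 CPM with pamidronate and 251 CPM in the controls. Ncoa1 and Ppargc1b, both coactivators, fell, at -0.62 ± 0.08 (adjusted p = 6.34e-06) and -0.57 ± 0.14 (adjusted p = 0.0018). The risen gene was Ep300, a histone acetyltransferase, at 0.56 ± 0.11 (adjusted p = 0.000383), and the receptor partners Rxra and Rxrb were at -0.14 ± 0.12 and -0.26 ± 0.12 without a call. With GGOH added, 4 of the 15 genes rose and 2 fell against pamidronate alone, of which the risen share was near the 25.2% of all genes and the fallen share below the 23.6%. Pamidronate + GGOH against control had 1 risen and 8 fallen genes, or 2 and 4 with upper-quartile scaling, beside 26.3% and 26% of all genes.

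Genes that make or clear sterol ligands of LXR were mostly too low to test. Cyp27a1, which makes 27-hydroxycholesterol, had 10.4, 12.2 and 13.7 CPM with pamidronate + GGOH, 3.48, 2.91 and 3.10 CPM with pamidronate and 21.1, 22.6 and 23.3 CPM in the controls. The 3 groups did not overlap. Cyp27a1 fell with pamidronate, with a log2 fold change of -2.82 ± 0.15 (adjusted p = 2.99e-09), and with GGOH added it was higher than with pamidronate alone, at 1.93 ± 0.15 (adjusted p = 3.5e-07). Sult2b1, a sterol sulfotransferase, was not called in any comparison, at 0.52 CPM or less in every group mean.

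Of 17 genes of sterol transfer between lysosome, plasma membrane and endoplasmic reticulum, 15 were tested, and 5 rose and 8 fell with pamidronate against control, with a median of -0.33. The risen share was near the 36.2% of all genes tested, of which 32.9% fell and the median was 0.08. Gramd1c, an endoplasmic reticulum protein of the family that draws cholesterol from the plasma membrane, averaged 6.82 CPM with pamidronate + GGOH, 4.87 CPM with pamidronate and 0.697 CPM in the controls, and rose with pamidronate, with a log2 fold change of 2.78 ± 0.37 (adjusted p = 1.43e-05). Anxa6, a membrane-binding annexin of late endosomes, fell, at -2.09 ± 0.16 (adjusted p = 3.36e-07), and Osbpl1a, a sterol sensor on late endosomes, fell, at -1.07 ± 0.17 (adjusted p = 6.26e-05). Stard4, a soluble sterol carrier, had 13.6, 14.4 and 17.3 CPM with pamidronate + GGOH, 52.9, 54.8 and 52.2 CPM with pamidronate and 42.5, 35.5 and 33.8 CPM in the controls. All 3 pamidronate + GGOH libraries of Stard4 lay below every other library. Stard4 fell with GGOH added to pamidronate, at -1.82 ± 0.12 (adjusted p = 8.31e-08), whereas it rose with pamidronate against control, at 0.52 ± 0.11 (adjusted p = 0.000753). With GGOH added, 4 genes of this list rose and 6 fell against pamidronate alone, beside 25.2% and 23.6% of all genes. Pamidronate + GGOH against control had 1 risen and 9 fallen genes, beside 26.3% and 26% of all genes.

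Lipid droplet genes included the largest rises among the lists. Of 18 genes of cholesteryl ester and lipid droplet turnover, 13 were tested, Plin2 among them, and 7 rose and 4 fell with pamidronate against control, with a median of 0.64, beside 36.2% risen, 32.9% fallen and a median of 0.08 over all genes tested. The summed level of 4 adipocyte markers was 1.14 to 3.63 TPM with pamidronate + GGOH, 5 to 7.53 TPM with pamidronate and 0 to 0.348 TPM in the controls. Of the 4 markers, 1 was called higher with pamidronate. Plin1 is both an adipocyte marker and a gene of this list, so the sum is not separate from the list. The part of an adipocyte-like shift in these results was not tested. Hilpda, an inhibitor of the droplet lipase encoded by Pnpla2, had 174, 150 and 88.8 CPM with pamidronate + GGOH, 145, 154 and 188 CPM with pamidronate and 6.07, 5.32 and 5.75 CPM in the controls. The treated groups overlapped, and both lay far above the controls. Hilpda rose with pamidronate, with a log2 fold change of 4.83 ± 0.27 (adjusted p = 4.6e-07), the largest change of any gene in these lists. Soat2, the second cholesterol acyltransferase, had 16.9, 18.6 and 15.6 CPM with pamidronate + GGOH, 2.81, 3.23 and 3.28 CPM with pamidronate and 4.50, 2.97 and 3.03 CPM in the controls. All pamidronate + GGOH libraries were above every other library for Soat2, and the other groups overlapped. Soat2 rose with GGOH added to pamidronate, at 2.45 ± 0.18 (adjusted p = 2.42e-07), with -0.17 ± 0.20 (adjusted p = 0.451) for pamidronate against control. Plin4, a further droplet coat protein, averaged 2.74 CPM with pamidronate + GGOH, 5.35 CPM with pamidronate and 1.23 CPM in the controls, and rose with pamidronate, at 2.10 ± 0.32 (adjusted p = 4.22e-05). Against pamidronate alone, pamidronate + GGOH had 2 risen and 3 fallen genes in this list, with 25.2% and 23.6% over all genes. Against control it had 7 risen and 4 fallen genes, or 8 and 2 with upper-quartile scaling, with 26.3% and 26% over all genes.

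Among 16 other lipoprotein and sterol transporters, 11 were tested, and 2 rose and 7 fell with pamidronate, with a median of -0.41, beside 36.2% risen, 32.9% fallen and a median of 0.08 over all genes tested. With upper-quartile scaling 3 rose and 5 fell. Angptl4, a secreted inhibitor of lipoprotein lipase, had 5.62, 9.03 and 6.20 CPM with pamidronate + GGOH, 1.22, 0.443 and 0.805 CPM with pamidronate and 2.69, 3.86 and 4.64 CPM in the controls. Its 3 groups did not overlap, with pamidronate lowest and pamidronate + GGOH highest. Angptl4 fell with pamidronate, with a log2 fold change of -2.16 ± 0.34 (adjusted p = 5.53e-05), and rose with GGOH added, at 3.06 ± 0.33 (adjusted p = 5.05e-06), the largest rise with GGOH among the genes of these lists. Abca5, a transporter of late endosomes and lysosomes, rose with pamidronate, at 1.14 ± 0.19 (adjusted p = 8.57e-05), while Abca7 and Abca2 of the same subfamily fell, at -0.86 ± 0.11 (adjusted p = 8.09e-06) and -0.86 ± 0.12 (adjusted p = 1.61e-05). With GGOH added, 3 genes rose and 2 fell against pamidronate alone, shares near the 25.2% and 23.6% of all genes. In pamidronate + GGOH against control 3 rose and 4 fell, or 4 and 3 with upper-quartile scaling, beside 26.3% and 26% of all genes.

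**Figure D4:**
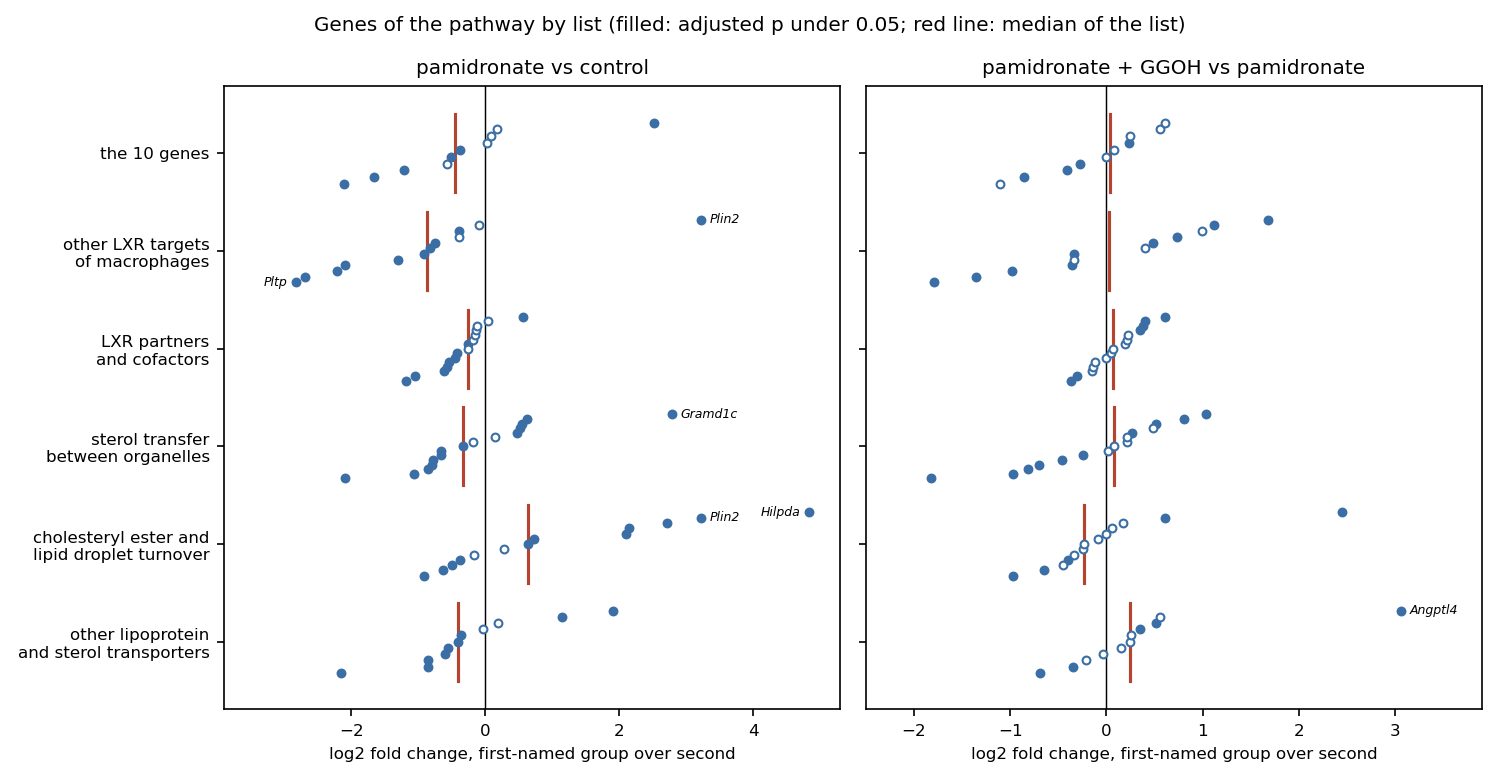
Log2 fold change of each tested gene of the 10 genes and of 5 of the lists, for pamidronate against control (left) and pamidronate + GGOH against pamidronate (right), with filled points for an adjusted p under 0.05 and a line at the median of the list. The other LXR targets have a median of -0.87 with pamidronate against control and of 0.03 with GGOH added, and the droplet genes Hilpda and Plin2 lie furthest to the right on the left side.

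Likeness to Abca1 over the 9 libraries was measured by Pearson's r of log2(CPM + 0.5). It was ranked among tested genes with at least 5 CPM in a group mean, with predicted and clone-named genes left out. Within that set the most alike were Kpnb1 (0.9940), Nxt2 (0.9900), Gspt1 (0.9897), Clns1a (0.9888) and Csnk2b (0.9862). These values describe likeness over 9 libraries of 3 groups that also differ in mitochondrial share. All 5 had the same order of group means as Abca1. Kpnb1, an importin of nuclear import, averaged 191 CPM with pamidronate + GGOH, 228 CPM with pamidronate and 297 CPM in the controls, a far smaller range than that of Abca1.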

How the data were processed

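Raw counts per gene were deposited by the authors for 9 libraries of total RNA, depleted of ribosomal RNA per the labels' protocols, with 300 ng of input RNA. The submitters' processing notes name Trimmomatic 0.36, GRCm38 and DESeq, the last without a role or version. Aligner, counting tool and strand setting: not given in the sources used here. TPM values were also deposited by the authors, and they equal count over exon length scaled to a fixed sum, with a largest difference of 5e-05, and the per-sample files differed from the count table in 0 rows. All libraries carry 1 batch label.

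Low counts were filtered with edgeR's filterByExpr, libraries were scaled with TMM factors, and all 9 libraries entered 1 model of group means (edgeR 4.0.16, robust quasi-likelihood test, R 4.3.3). P-values were adjusted by Benjamini-Hochberg over 15963 genes. The common dispersion was 0.0162, with 6 residual degrees of freedom. The SE of a fold change was taken as its log2 size divided by the root of F. The test was checked on simulated counts with 1 common dispersion and few changed genes. That setting differs from these data, where 36.2% of genes rose and 32.9% fell with pamidronate, so the check does not cover such a case. CPM are counts scaled to TMM library size. Overlap of libraries between groups was judged in CPM unless TPM is named. Ratios between genes were compared with an exact permutation test. The 10 genes, the lists and the tests were chosen with earlier results of these data known. From each list, up to 4 genes were named, those with the largest called change in the first 2 comparisons and at least 5 CPM in a group mean; genes named otherwise (Ep300, Rxra, Rxrb, Sult2b1, Lpcat3, Arl4c, Srebf1, Scd1, Scd2, Fasn) were chosen after their values were seen. Alternatives were RLE and upper-quartile factors, leaving out abundant mitochondrial and nuclear RNAs, no or a stricter filter (5 CPM in 3 libraries), DESeq2 1.42.0, limma-voom (limma 3.58.1), 2-group fits, a replicate block, other thresholds and leaving out each library. A gene of the list on sterol ligands is not reported here. The log2 ratio of deposited TPM was added after seeing the data.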

Additional observations from a re-analysis of the deposited data

How the results depend on the processing

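Of 627 recomputed fold changes of the 10 genes, 36 lost the call, 25 gained one, 15 moved by more than 1 SE in deposited TPM and 22 changed sign. The other 529 kept their side of the threshold without a change of sign or, in deposited TPM, lay within 1 SE. Outside deposited TPM the size of the shift did not enter this count. The calls of Abca1, Abcg1, Nr1h3, Soat1 and Apoe with pamidronate against control held in every alternative with a test at an adjusted p of 0.05 and no minimum fold change. Nr1h3, at 4.95 CPM or less in every library, did not pass the stricter filter and had no value there. The sign changes were of uncalled values, except that Soat1 with pamidronate + GGOH against control was 0.04 in TPM. On that scale Nr1h2, Lpl and Npc2 in the same comparison were 0.15, 0.33 and 0.10, while the median of all genes was 0.35. With upper-quartile factors Nr1h2 was 0.02 there. For Lpl there the value was 0.18 with upper-quartile factors, 0.13 with the stricter filter, 0.04 with the replicate block, 0.02 for 2 groups alone, 0.02 in limma-voom and -0.23 to 0.21 without single libraries. Npc1 with pamidronate against control was -0.01 with RLE factors and in DESeq2, -0.02 without mitochondrial genes, -0.06 with no filter and -0.08 to 0.11 without single libraries. Without single libraries, Ppargc1b against control with pamidronate + GGOH ran from -0.08 to 0.18, Hilpda with GGOH added from -0.40 to 0.04, Soat2 with pamidronate from -0.34 to 0.04 (0.02 with upper-quartile factors), and the Soat1 to Lipa ratio difference of pamidronate + GGOH against control from -0.07 to 0.22. With GGOH added to pamidronate, 4 of the 10 genes were called, or 2 at an adjusted p under 0.01, 0 at a 2-fold change and 1 to 6 without single libraries. Against control, pamidronate + GGOH had 3 called at a 2-fold change, against 5. A 2-fold change left 6047, 2590 and 3079 of 11042, 7784 and 8359 genes called, in the order pamidronate against control, pamidronate + GGOH against pamidronate and pamidronate + GGOH against control. The cause of these shifts was not tested. Same-numbered libraries correlated from -0.224 to 0.204 in their deviations, so the numbers were not taken as pairs. The replicate block gave 7, 4 and 5 called members in place of 6, 4 and 5, by gaining Lpl with pamidronate, and by gaining Lpl and losing Soat1 with GGOH added. Nr1h3 and Apoe rest on 14 to 113 counts a library, which limits their precision.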
